A study of Mus musculus with 12 samples.

Results

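The Zfp genes are the mouse genes whose symbol is Zfp followed by a number, most of which encode proteins with C2H2 zinc fingers. Members were all genes with such a symbol, except Zfp36, Zfp365 and Zfp367, that had a mean raw count of at least 100 over the 6 libraries of the stellate cell line and also over the 6 libraries of the cancer cell line. This rule took 268 of the 17335 genes in either count table, from 352 genes with a Zfp-number symbol in either table and 335 in both. The members were thus chosen by their symbol and their mean raw counts, a measure of level, so levels are given as a description, and only the change between treatments was tested. Zfp619, at a mean of 100.3 counts in the cancer line, and Zfp947, at 101.2 in the stellate line, were just inside the limit, while Zfp287 at 98.8 and Zfp446 at 97.5 were just outside it.

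A C2H2 finger is a short loop held by a zinc ion, and a row of such fingers reads a DNA sequence. Many of these proteins also carry a KRAB box, which recruits TRIM28 and with it SETDB1, heterochromatin protein 1 and the NuRD complex, and so silences retroelements and imprinted or other loci. Others carry a SCAN domain, by which they pair, and a further group has neither and works as activators, as partners of chromatin enzymes, or outside promoters in ribosome assembly, splicing or the handling of RNA. KRAB genes lie in clusters that arose by duplication, and many copies are alike in sequence.

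RNA sequencing covered 12 libraries of 2 mouse cell lines, with 3 biological replicates in each of 4 groups. PSC4 is a pancreatic stellate cell line and KPC4 a pancreatic adenocarcinoma line. PSC4 cells were kept for 24 h in supernatant of KPC4 cells that had been given vehicle (Control-SU) or 10 µM of the nucleoside analogue gemcitabine (Gem-SU) for 6 h and had then, after washing, conditioned starvation medium for 14 h. KPC4 cells were kept for 24 h in supernatant of PSC4 cells that had spent 6 h in either KPC4 supernatant and had then, after washing, conditioned fresh starvation medium for 18 h (Control-PSC-SU and Gem-PSC-SU). All libraries thus came from cells under conditioned starvation medium, each line stands for its cell type alone, and a group given the drug directly was not analysed here. The comparisons address how stromal cells respond to supernatant of drug-treated cancer cells, and how cancer cells respond to the supernatant of stromal cells so exposed.

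Total counts lay between 29559414 and 38138356 per library in PSC4 and between 26354328 and 34744150 in KPC4. Levels are given in CPM, the count relative to the library total as scaled by TMM within each line, so that a level in PSC4 and a level in KPC4 were normalised separately. All 268 members passed the filter on low counts in both lines. The fibroblast markers were present in PSC4, where their summed level was 8691 to 9197 CPM with Control-SU and 5015 to 5348 CPM with Gem-SU, and 6 of the 8 fell (edgeR adjusted p under 0.05). Epithelial markers summed to 3.54 to 6.06 CPM with Control-SU and 10.2 to 14.8 CPM with Gem-SU, with Cdh1 and Epcam not listed in the PSC4 table, against 5963 to 7423 CPM in KPC4. In KPC4 the fibroblast list summed to 3449 to 4283 CPM with Control-PSC-SU and 3271 to 3780 CPM with Gem-PSC-SU, mostly from Vim (2588 ± 191 CPM in the controls) and Fn1 (1339 ± 308 CPM; SD, n = 3), while Pdgfrb and Postn were not listed. The part of these marker changes in the results on Zfp genes was not tested. A level is a share of the transcripts of a culture, so a change in RNA per cell and a change in the make-up of the culture cannot be told apart.

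By patterns in the translated coding sequence, 150 members had a KRAB box, 7 a SCAN domain, 2 both and 107 neither. For the other 2, Zfp125 and Zfp469, the annotation used held no coding transcript. Members had a median of 11 fingers and at most 37, in Zfp142. Chromosome 7 held 65 members and chromosome 17 held 38. Of all members, 172 lay within 500 kb of another member and 96 did not.

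RefSeq promoters (GRCm38.p6, 250 bases before to 50 bases after the transcript start) were matched by symbol for 219 of the 268 members. Member promoters held a median of 16 CpG dinucleotides, against 8 over 27025 genes. Those genes outnumber the 17335 in either count table and were not chosen by level, whereas members had to pass a count limit. Promoters of other genes of the same count range were not compared. Whether this difference and those in motif shares below are particular to the family was not tested. The core of the site bound by the member Zfp143, itself a zinc finger activator, was present on either strand in 11 of 219 member promoters (5.02%), against 1.17% of all promoters. The GC box GGGCGG was present in 49.8% against 38.2%, the TATA box TATAAA in 7.76% against 15.7%, and the AP-1 motif TGANTCA in 5.02% against 8.97%. For the E-box CACGTG the shares were 8.68% and 8.09%, and for the CRE motif TGACGTCA 3.65% and 2.03%. The CRE motif and the E-box share the letters ACGT, and a match describes letters, not a bound site. The GC box was found in 25 of 41 promoters of members that rose in PSC4 (61.0%), in 23 of 50 of those that fell (46.0%) and in 61 of 128 of those not called (47.7%). The Zfp143 core was found in 1 of 41, 4 of 50 and 6 of 128 of these promoters. The 3 promoters below belong to the member with the largest decrease in PSC4, the member with the largest increase in KPC4, higher in every Gem library of both lines, and a decreased member with the Zfp143 core. Each is read 5′ to 3′ along the gene's own strand, with motif matches in capitals. Zfp467 lies on the minus strand (chr6:48445041-48445340) and holds a GC box that starts 13 bases before the transcript start. Zfp948 lies on the plus strand (chr17:21566728-21567027) and holds no match to the 6 motifs. Zfp128 lies on the plus strand (chr7:12880928-12881227) and holds a GC box and, starting 15 bases before the transcript start, the Zfp143 core in reverse orientation.
Zfp467: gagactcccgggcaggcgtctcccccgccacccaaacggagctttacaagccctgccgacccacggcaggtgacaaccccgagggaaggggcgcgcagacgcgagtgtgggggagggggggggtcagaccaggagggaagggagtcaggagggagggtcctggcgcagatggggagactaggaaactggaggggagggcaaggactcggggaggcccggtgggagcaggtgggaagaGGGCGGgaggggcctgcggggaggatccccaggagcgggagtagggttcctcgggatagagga
Zfp948: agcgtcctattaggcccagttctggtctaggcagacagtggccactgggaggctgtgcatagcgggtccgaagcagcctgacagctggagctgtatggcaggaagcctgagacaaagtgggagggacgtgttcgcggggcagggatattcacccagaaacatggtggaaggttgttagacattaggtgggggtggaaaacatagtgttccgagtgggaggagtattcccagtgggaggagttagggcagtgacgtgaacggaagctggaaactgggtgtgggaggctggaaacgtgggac
Zfp128: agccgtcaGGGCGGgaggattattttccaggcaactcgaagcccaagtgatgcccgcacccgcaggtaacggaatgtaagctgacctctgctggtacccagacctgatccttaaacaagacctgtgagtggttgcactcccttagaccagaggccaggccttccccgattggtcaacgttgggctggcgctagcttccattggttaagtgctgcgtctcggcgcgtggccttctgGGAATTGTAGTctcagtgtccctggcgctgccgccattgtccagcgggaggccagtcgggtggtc

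In PSC4, 62 of the 268 members fell and 57 rose with Gem-SU (edgeR quasi-likelihood test, Benjamini-Hochberg adjusted p under 0.05 over all genes). These are 23.1% and 21.3% of the members, beside 22.0% of all 13347 genes tested that fell and 24.3% that rose. Among the 9887 other genes of the same count range that were tested, 22.8% fell and 26.6% rose. The family was thus called about as often as other genes and in both directions, and its median log2 fold change was -0.03, against 0.00 over all genes and 0.02 over the genes of the same count range. Of the called members, 32 were lower (11.9% of members, against 11.7% of all genes) and 22 higher (8.21%, against 13.5%) by at least 2-fold, and the extremes were Zfp467 at -2.82 and Zfp703 at 2.60 on the log2 scale. The groups did not overlap in 71 members that were lower (26.5%, against 27.1% of all genes) and 64 that were higher (23.9%, against 29.3%). The count of decreases was 41 without Gem-SU replicate 2, and the count of increases was 37 without Control-SU replicate 3.

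Among the 152 members with a KRAB box, 36 fell (23.7%) and 25 rose (16.4%) in PSC4, with a median log2 fold change of -0.07. Among the 107 with neither domain, 24 fell (22.4%) and 29 rose (27.1%), with a median of 0.10. Of the 7 members with a SCAN domain alone, 1 fell and 2 rose. The difference between the classes was not tested. Members within 500 kb of another fell in 41 and rose in 31 of 172 cases, and those that lay alone fell in 21 and rose in 26 of 96. On chromosome 7, 18 of 65 members fell and 10 rose. Related families outside the symbol rule changed in both directions as well: of 31 Zbtb genes 7 fell and 8 rose, of 8 Zscan genes 3 fell and 2 rose, and of 7 Zkscan genes none fell and 1 rose (edgeR, against the same background).

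**Figure D1:**
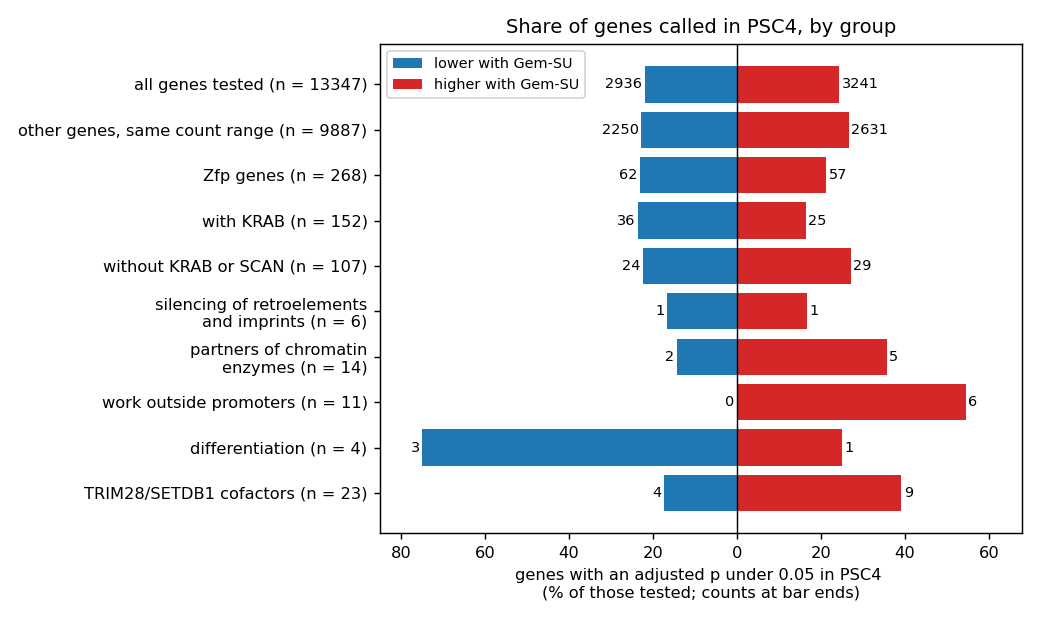
Share of genes with an edgeR adjusted p under 0.05 in PSC4, for all genes, the Zfp genes, their classes and roles, and the cofactors of KRAB proteins; bars to the left are genes lower with Gem-SU and bars to the right genes higher, in % of the genes tested, with counts at the bar ends. The bars of the 268 Zfp genes (23.1% and 21.3%) are close to those of all genes (22.0% and 24.3%). Of the 11 genes that work outside promoters, 6 were called higher and none lower. The role lists were chosen with earlier results of these data known.

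Zfp467 had the largest decrease. It promotes the adipocyte fate of mesenchymal progenitors. Its level was 8.0, 6.47 and 10.2 CPM in the 3 Control-SU libraries and 1.56, 1.38 and 0.508 CPM in the 3 Gem-SU libraries, a log2 fold change of -2.82 ± 0.42 (SE; edgeR adjusted p = 0.00099). All Gem-SU libraries were below all controls, and the third was the lowest. Zfp827, which recruits the NuRD complex to DNA, telomeres included, was at 27.4, 33.9 and 34.3 CPM with Control-SU and 5.92, 7.39 and 5.56 CPM with Gem-SU. Its groups were far apart and close within themselves (-2.34 ± 0.20, SE; edgeR adjusted p = 9.5e-05). Zfp704 was at 70.4, 90.9 and 87.7 CPM with Control-SU and 27.2, 31.2 and 36.5 CPM with Gem-SU, and its groups were far apart (-1.39 ± 0.17, SE; edgeR adjusted p = 0.00045).

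Of the 152 KRAB members, 15 fell by at least 2-fold (9.87%, against 11.7% of all genes) and 11 rose by as much (7.24%, against 13.5%). Zfp90, Zfp764, Zfp799 and Zfp128 were among the 10 largest decreases of the family without overlap of the groups. Zfp90 was at 26.8, 26.3 and 27.4 CPM with Control-SU and 10.3, 8.92 and 6.34 CPM with Gem-SU (-1.66 ± 0.21, SE; edgeR adjusted p = 0.00052). Its controls were nearly equal and its treated libraries all lower, but 79.5% of its exon bases overlapped another annotated gene, so that its reads are uncertain. Zfp799 was at 6.55, 7.83 and 7.44 CPM and 2.75, 2.19 and 2.88 CPM, with tight groups (-1.48 ± 0.24, SE; edgeR adjusted p = 0.0015). Zfp764 fell from 7.57 ± 1.27 to 2.69 ± 0.381 CPM (SD, n = 3 each; edgeR adjusted p = 0.0019), with 47.4% of its 31-base words shared with other genes. Zfp128, at 3.74, 8.90 and 8.13 CPM with Control-SU, had a low first control and was at 2.62, 3.12 and 1.97 CPM with Gem-SU (edgeR adjusted p = 0.013). Zfp579, Zfp524 and Zfp449 were also among these 10, with log2 fold changes of -1.75 ± 0.46, -1.52 ± 0.30 and -1.38 ± 0.27 (SE). The adjusted p of Zfp579 rose from 0.014 to 0.058 without Gem-SU replicate 2 (edgeR), and Zfp524 shared 45.7% of its words with other genes and overlapped others over 51.6% of its exons.

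Zfp703 had the largest increase. It is a corepressor of the NET family and an oncogene of luminal breast cancer. Its level was 16.6, 7.48 and 14.3 CPM with Control-SU and 82.3, 81.0 and 69.4 CPM with Gem-SU (2.60 ± 0.28, SE; edgeR adjusted p = 0.00027). Every Gem-SU library was more than 4 times the highest control. Zfp703 was not among the 240 members with under 10% of their exon bases overlapped by another gene. Zfp948, a KRAB protein with 15 fingers, rose from 24.8, 22.8 and 25.3 CPM to 88.8, 115 and 140.3 CPM (2.24 ± 0.19, SE; edgeR adjusted p = 9.1e-05). Zfp850, a KRAB protein with 16 fingers, was at 13.3, 15.9 and 14.7 CPM with Control-SU and 35.3, 51.0 and 50.2 CPM with Gem-SU, again with no overlap (1.64 ± 0.19, SE; edgeR adjusted p = 0.00037).

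The KRAB members Zfp456, Zfp248 and Zfp619 rose as well. Zfp456 was at 3.60, 6.66 and 5.33 CPM with Control-SU and 16.7, 26.7 and 23.4 CPM with Gem-SU (edgeR adjusted p = 0.00067), with 59.2% of its exon bases overlapped by other genes. Zfp248 was at 14.1, 15.9 and 15.9 CPM and 38.2, 52.1 and 43.5 CPM, and its 3 controls were nearly equal (edgeR adjusted p = 0.00031). Zfp619, a protein of 33 fingers, rose from a low 2.43 ± 0.475 CPM to 7.05 ± 1.85 CPM (SD, n = 3 each; edgeR adjusted p = 0.0032). Outside the KRAB class, Zfp800 was at 15.4, 18.2 and 20.7 CPM with Control-SU and 36.5, 58.7 and 68.2 CPM with Gem-SU, the first treated library being the lowest of its group (edgeR adjusted p = 0.0012). Zfp593, which takes part in the assembly of the large ribosomal subunit, rose by 1.46 ± 0.24 on the log2 scale (SE; edgeR adjusted p = 0.0015), with 77.9% of its exon bases overlapped by other genes.

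**Figure D2:**
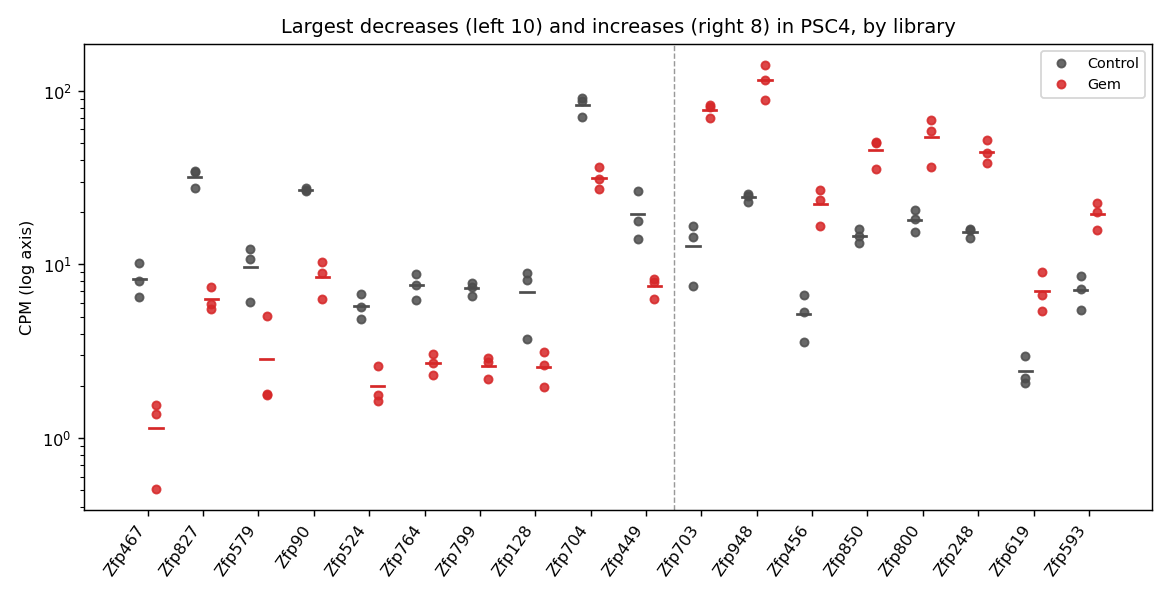
Level in CPM (log axis) of the 10 largest decreases and 8 largest increases among members in PSC4; each point is a library, grey for Control-SU and red for Gem-SU, and bars mark the means of 3 libraries. The groups do not overlap for any of the 18 genes, which is a condition of their choice, and Zfp467 spans from 10.2 CPM in a control to 0.51 CPM in a Gem-SU library.

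Of 11 members known for work outside promoters, 6 rose and none fell in PSC4 (54.5%, against 24.3% of all genes). Their median log2 fold change was 0.47, and 2 of the 11 had negative values, down to -0.30, that were not called. The list was chosen with earlier results of these data known. Zfp330, a nucleolar protein, was at 59.2, 45.4 and 58.7 CPM with Control-SU and 112, 126 and 136 CPM with Gem-SU (1.20 ± 0.16, SE; edgeR adjusted p = 0.00061). Zfp346, which binds double-stranded RNA, was at 21.2, 15.5 and 19.2 CPM and 44.1, 45.4 and 47.0 CPM, more than 2 times every control in each treated library (edgeR adjusted p = 0.00056). Smaller increases were found for Zfp326, a subunit of the DBIRD complex that links transcription to splicing (0.53 ± 0.13, SE), Zfp622, a factor of large ribosomal subunit assembly (0.42 ± 0.14), and the splicing protein Zfp830 (0.47 ± 0.16), and Zfp593 was described above. Zfp598, the ubiquitin ligase that senses collided ribosomes, did not pass the test (0.42 ± 0.21, SE; edgeR adjusted p = 0.13), and neither did Zfp207, a spindle protein that binds BUB3 (0.50 ± 0.20, SE; adjusted p = 0.075).

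Of 14 partners of chromatin enzymes, 5 rose (35.7%, against 24.3% of all genes) and 2 fell (14.3%, against 22.0%) in PSC4. These counts depended on the fit. With DESeq2, 5 rose (35.7%, against 28% of other genes of the same count range) and 4 fell (28.6%, against 25.4%). With the replicate number as a block, 6 rose and 6 fell (42.9% each, against 27.9% and 26.6% of all genes). Zfp335, a subunit of histone H3K4 methyltransferase complexes, rose most, from 33.5, 26.4 and 34.2 CPM to 76.2, 80.3 and 85.6 CPM (edgeR adjusted p = 0.00032). Zfp410, whose known target is Chd4, the NuRD remodeller, was at 24.3, 22.8 and 25.3 CPM with Control-SU and 52.6, 62.0 and 55.6 CPM with Gem-SU (1.23 ± 0.14, SE; edgeR adjusted p = 0.00035). Zfp131 rose by 0.93 ± 0.14, the G9a partner Zfp644 by 0.67 ± 0.21 and Zfp592 by 0.65 ± 0.16 on the log2 scale (SE). Zfp592 and Zfp687 belong to the same complex with ZMYND8, and Zfp687 went the other way, at 82.9, 74.6 and 99.6 CPM with Control-SU and 38.4, 37.7 and 35.9 CPM with Gem-SU (edgeR adjusted p = 0.0005). Zfp217, a component of the CtBP and LSD1 corepressor complexes, fell by 0.67 ± 0.17 on the log2 scale (SE; edgeR adjusted p = 0.011). Zfp143, whose motif is named above, was at 18.4, 20.5 and 18.8 CPM with Control-SU and 17.5, 22.0 and 22.5 CPM with Gem-SU, and its groups overlapped.

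Among 6 members that silence retroelements or imprinted loci, 1 fell and 1 rose in PSC4 (16.7% each, against 22.0% and 24.3% of all genes). Zfp57, which keeps the DNA methylation of imprinted loci, was at 15.5, 22.4 and 21.5 CPM with Control-SU and 10.4, 9.98 and 9.86 CPM with Gem-SU, with treated libraries that hardly varied (-0.97 ± 0.20, SE; edgeR adjusted p = 0.0047). Zfp568, a repressor of a placental Igf2 transcript, rose from 13.9, 19.1 and 21.4 CPM to 25.8, 45.9 and 46.1 CPM (edgeR adjusted p = 0.0093). Zfp445, the other imprint guardian, Zfp809, which silences murine leukaemia virus, Zfp932 and Zfp638 did not pass the test, with log2 fold changes from -0.27 to 0.38. Of 4 members with a role in differentiation, Zfp467, Zfp827 and Zfp516 fell (75%, against 22.0% of all genes) and Zfp703 rose (25%, against 24.3%). Zfp467, Zfp827 and Zfp703 are also among the largest changes described above, and the list was chosen with earlier results of these data known. Zfp516, an activator of the brown fat programme, was at 93.3, 112 and 124 CPM with Control-SU and 56.1, 75.9 and 69.6 CPM with Gem-SU (edgeR adjusted p = 0.0094).

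The proteins through which KRAB members act also changed in both directions in PSC4. Of 23 cofactor genes measured, 9 rose (39.1%, against 24.3% of all genes) and 4 fell (17.4%, against 22.0%). TRIM28, the direct partner of the KRAB box, and SETDB1, the H3K9 methyltransferase it brings, were not called: Trim28 was at 334 ± 22.4 CPM with Control-SU and 390.4 ± 48.2 CPM with Gem-SU, and Setdb1 at 122 ± 12.5 and 103 ± 16.4 CPM (SD, n = 3 each). The NuRD remodellers Chd3 and Chd4 moved in opposite directions. Chd3 went from 287 ± 32.3 to 89.9 ± 7.56 CPM (SD, n = 3 each; log2 fold change -1.67 ± 0.15, SE, edgeR adjusted p = 0.00013), and Chd4 from 526 ± 50.6 to 1210.3 ± 126 CPM (1.20 ± 0.17, adjusted p = 0.00091). The H3K9 methyltransferases were split as well: Ehmt2 (-1.14 ± 0.19) and Suv39h1 (-0.63 ± 0.16) fell, and Suv39h2 (0.91 ± 0.17) rose on the log2 scale (SE). Mphosph8, Pphln1, Morc2a and Morc3, all tied to the HUSH complex or to silencing of retroelements, rose by 0.50 to 0.97 on the log2 scale, as did Smarcad1 by 1.13 ± 0.23 (SE). Sumo2 fell, and Hdac1 and Uhrf1 rose.

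The median level of the family varied between replicates. The median over the 268 members of the log2 level, set against the mean of the controls, was -0.15, 0.12 and 0.04 in the Control-SU libraries and -0.21, 0.02 and 0.15 in the Gem-SU libraries. Replicate 1 was lowest in both groups. The same was seen more strongly in KRAB members (-0.23, 0.18 and 0.04 with Control-SU, and -0.34, -0.06 and 0.16 with Gem-SU), while the other genes of the count range stayed between -0.0016 and 0.037. The total counts of these libraries were 34065826, 33375857 and 30465198 with Control-SU and 38138356, 32628901 and 29559414 with Gem-SU, and the part of depth in these medians was not tested. In KPC4 the medians over members were 0.07, -0.05 and 0.00 with Control-PSC-SU and 0.04, -0.12 and -0.18 with Gem-PSC-SU.

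**Figure D3:**
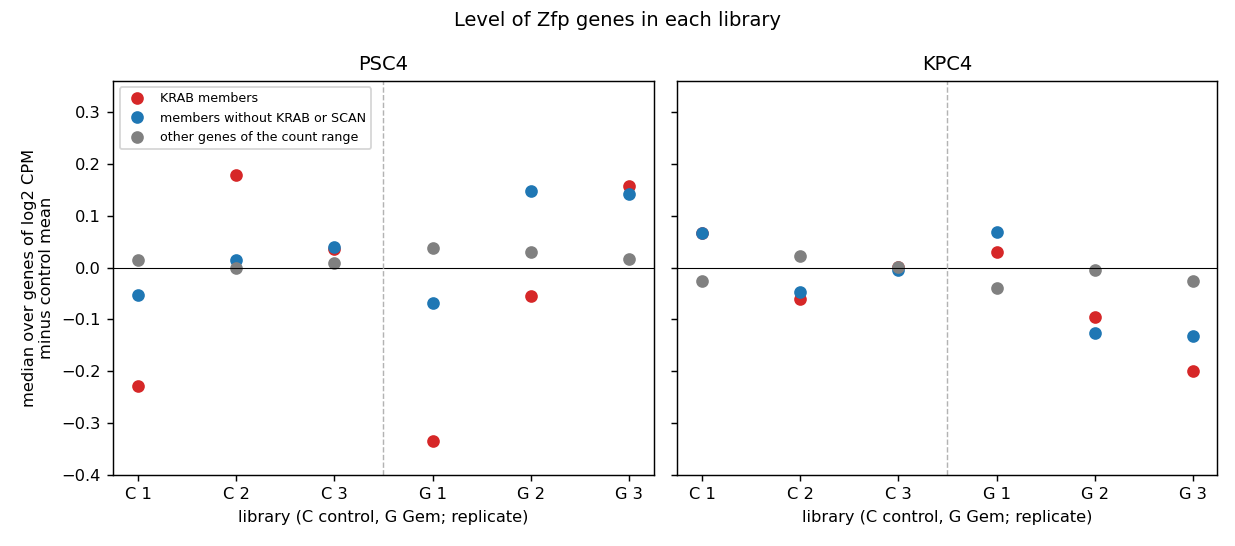
Median over genes of the log2 CPM minus the control mean in each library, for KRAB members (red), members without KRAB or SCAN (blue) and other genes of the count range (grey), in PSC4 (left) and KPC4 (right). The KRAB members are lowest in replicate 1 of both PSC4 groups (-0.23 and -0.34), and the treated and control libraries of both member classes overlap in both lines, while the other genes in PSC4 are higher with Gem-SU (0.017 to 0.037) than with Control-SU (-0.0016 to 0.014).

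In KPC4 no member, and no gene of the 13236 tested, passed edgeR's test without a block (0% of the background). The 4 members with the smallest p in that test were higher, led by Zfp948, which was also among the largest increases in PSC4. At an unadjusted p under 0.05, 15 of the 268 members were lower and 26 higher. Of all 13236 genes, 803 were lower (6.07%) and 1448 higher (10.9%), so more were higher than lower among all genes as well. The deviations of libraries with the same replicate number correlated in this line, so the fit with the replicate number as a block is given too. The labels do not state a pairing. The block was chosen from these same data, so its adjusted p-values can be too small. With it 9 members fell (3.36%, against 2.78% of all genes) and 8 rose (2.99%, against 6.07%). The members that fell with the block were Zfp12, Zfp219, Zfp316, Zfp358, Zfp362, Zfp524, Zfp704, Zfp775 and Zfp969, and those that rose were Zfp7, Zfp131, Zfp180, Zfp382, Zfp384, Zfp410, Zfp850 and Zfp948. DESeq2 without a block called 2 lower (0.764% of all genes) and 11 higher (4.83% of all genes). Without Gem-PSC-SU replicate 1, edgeR called 8 members lower and 18 higher. The share of all genes called in that fit is not given here, so these counts cannot be read as particular to the members. Over the members the median log2 fold change was -0.07, against -0.02 over all genes. The groups did not overlap in 22 members that were lower (8.21%, against 10.9% of all genes) and 37 that were higher (13.8%, against 11.8%).

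Zfp948 was at 11.8, 22.5 and 12.1 CPM with Control-PSC-SU and 46.7, 262 and 108 CPM with Gem-PSC-SU. Every treated library was above every control, and replicate 2, the highest control, was also the highest treated library. The log2 fold change was 3.17 ± 0.59 (SE; edgeR adjusted p = 0.11), or 2.91 with the block (adjusted p = 0.0048). Zfp382 was at 3.83, 5.57 and 4.35 CPM with Control-PSC-SU and 10.7, 10.2 and 10.7 CPM with Gem-PSC-SU, with 3 nearly equal treated libraries (edgeR adjusted p = 0.11, with the block 0.021). Zfp7 was at 42.6, 36.8 and 43.6 CPM and 65.5, 70.9 and 66.3 CPM, also with narrow groups (edgeR adjusted p = 0.12, with the block 0.026). Zfp410 was at 25.6, 24.2 and 24.3 CPM with Control-PSC-SU and 34.0, 83.8 and 56.2 CPM with Gem-PSC-SU, the same size of change as in PSC4 (1.23 ± 0.30 on the log2 scale, SE; edgeR adjusted p = 0.13, with the block 0.038). Its target Chd4 was at 621 ± 43.3 CPM and 854 ± 91.9 CPM in KPC4 (SD, n = 3 each), and did not pass the test with the block (edgeR adjusted p = 0.07). In Zfp410 and Zfp948 the treated library of replicate 2 was the highest and that of replicate 1 the lowest.

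The lower members with the smallest p in KPC4 were Zfp362, Zfp383, Zfp358 and Zfp788. Zfp362 was at 8.79, 8.45 and 9.68 CPM with Control-PSC-SU and 4.74, 4.15 and 5.35 CPM with Gem-PSC-SU, groups that were narrow and apart (-0.92 ± 0.24, SE; edgeR adjusted p = 0.14, with the block 0.036). Zfp383 was at 7.18, 6.14 and 9.34 CPM and 4.81, 3.25 and 3.24 CPM (edgeR adjusted p = 0.17, with the block 0.055). Zfp358 was at 38.1, 27.8 and 45.3 CPM and 27.7, 17.6 and 22.0 CPM, where the highest treated library was just under the lowest control (edgeR adjusted p = 0.22, with the block 0.042). Zfp788 was at 15.3, 14.5 and 15.3 CPM and 12.2, 6.48 and 8.06 CPM (edgeR adjusted p = 0.22, with the block 0.059). In the authors' deposited table for KPC4, 12 of the 264 members listed were higher and 1, Zfp788, lower at an adjusted p under 0.05, with Zfp948, Zfp382, Zfp7 and Zfp410 among the 12. In the authors' deposited table for PSC4, 66 were lower and 56 higher, of which 106 were also called here.

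**Figure D4:**
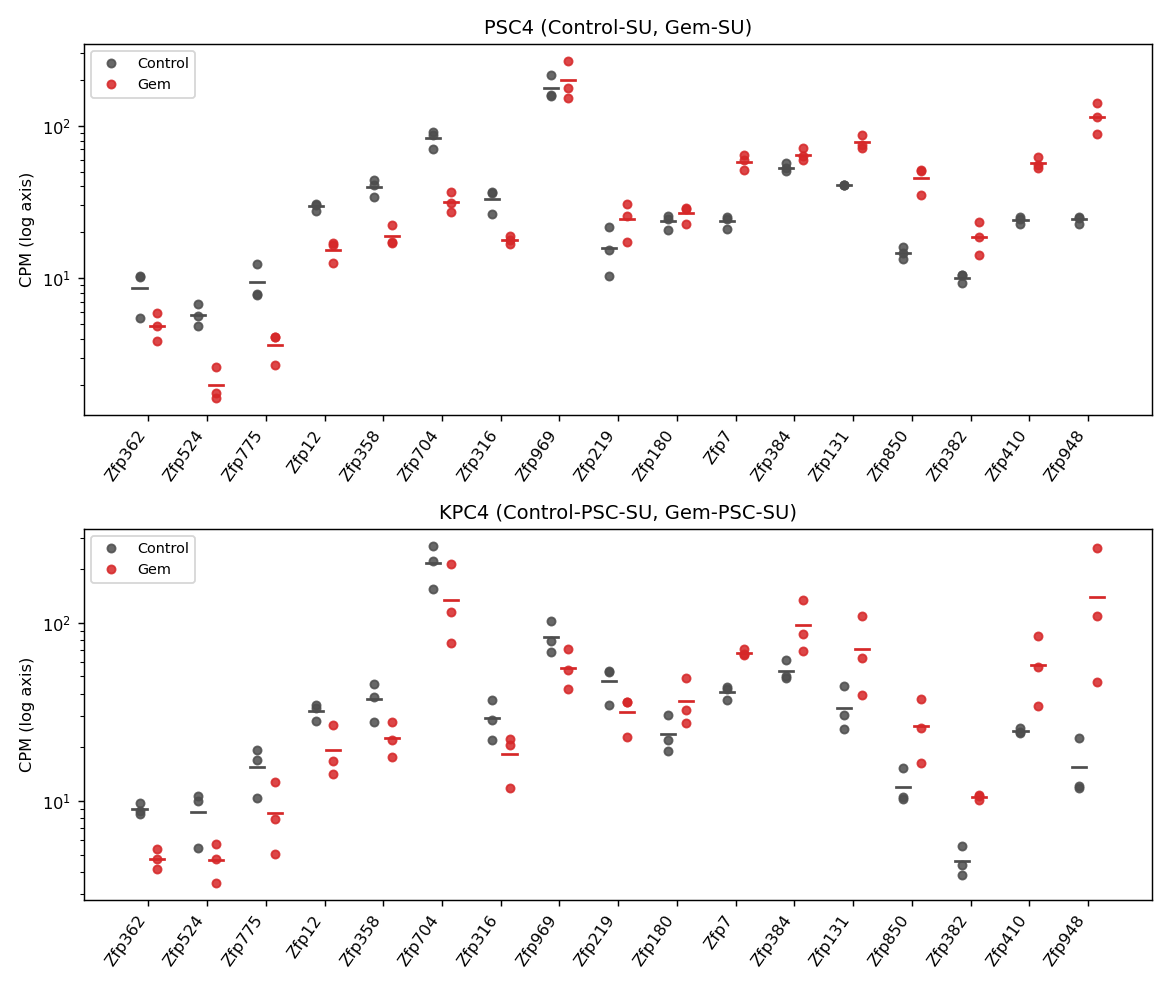
Level in CPM (log axis) of the 17 members called in KPC4 with the replicate block, in PSC4 (top) and KPC4 (bottom), ordered by their change in KPC4; each point is a library, grey for control and red for Gem supernatant, and bars mark the means of 3 libraries. Zfp948 is apart in both lines (22.8 to 25.3 against 88.8 to 140.3 CPM in PSC4, and 11.8 to 22.5 against 46.7 to 262 CPM in KPC4), while the groups of Zfp219 and Zfp969 overlap in both lines.

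Members that changed in PSC4 mostly had the same sign of change in KPC4. Of the 119 called in PSC4, 102 (85.7%) had the same sign in KPC4, 55 of 62 decreases and 47 of 57 increases. Over all genes tested in both lines this was 4493 of 5669 (79.3%). Across the 268 members the log2 fold changes of the lines had a Pearson r of 0.55 and a Spearman rho of 0.57, against 0.49 and 0.50 across all 12207 genes, where genes are not independent replicates and the libraries of the lines are separate. Of the 119 members called in PSC4, 12 were also called in KPC4 with the block, and all 12 had the same sign. Over all genes, 813 of the 5669 called in PSC4 were also called in KPC4 with the block, 775 of them with the same sign. The 12 members were Zfp12, Zfp316, Zfp358, Zfp524, Zfp704 and Zfp775, which fell, and Zfp7, Zfp131, Zfp382, Zfp410, Zfp850 and Zfp948, which rose. Zfp850 was at 10.3, 15.2 and 10.5 CPM with Control-PSC-SU and 16.2, 37.5 and 25.6 CPM with Gem-PSC-SU in KPC4, without overlap (1.14 ± 0.33, SE; edgeR adjusted p = 0.020 with the block). Zfp704 was at 269, 155 and 223 CPM and 214, 76.5 and 114 CPM there, where the first treated library lay among the controls (edgeR adjusted p = 0.031 with the block).

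**Figure D5:**
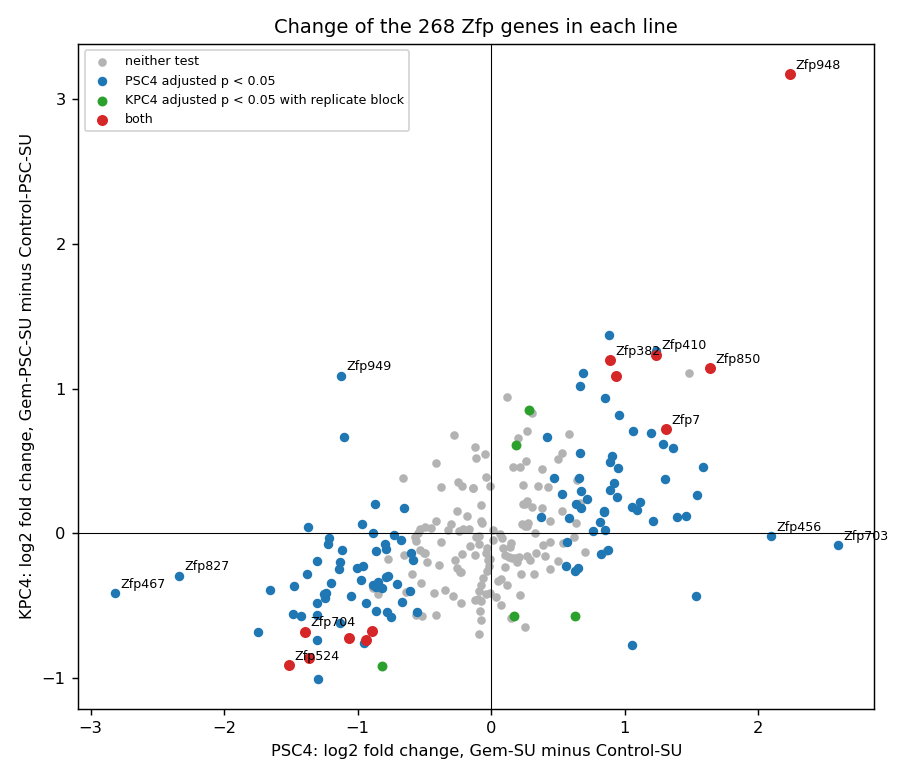
Log2 fold change of each of the 268 members in PSC4 (x axis) and KPC4 (y axis), Gem supernatant minus control; colours give the edgeR calls. Most members called in PSC4 keep their sign in KPC4 (102 of 119), Zfp948 is far out in both lines, and Zfp703, Zfp456, Zfp827 and Zfp467 are far out in PSC4 with values in KPC4 between -0.41 and -0.02.

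The response differed between the lines in 17 members by the interaction of line and treatment, 10 with the lower change in PSC4 and 7 with the higher (edgeR adjusted p under 0.05; 3.73% and 2.61% of the members, against 5.10% and 4.75% of all genes). Zfp703 differed most, with its increase in PSC4 and 156, 72.7 and 132 CPM against 137, 101 and 103 CPM in KPC4, where the groups overlapped. The difference of changes was 2.62 ± 0.43 on the log2 scale (SE; edgeR adjusted p = 0.003). Zfp456 (7.41, 5.87 and 7.5 CPM with Control-PSC-SU and 7.34, 5.67 and 7.5 CPM with Gem-PSC-SU in KPC4) differed by 2.07 ± 0.38 (SE; edgeR adjusted p = 0.0056), and Zfp619 by 1.93 ± 0.54 (SE; adjusted p = 0.04). In the other direction, Zfp949 was at 7.05, 9.72 and 8.48 CPM with Control-SU and 3.04, 3.85 and 4.68 CPM with Gem-SU in PSC4, but at 9.31, 6.20 and 9.61 CPM with Control-PSC-SU and 13.7, 24.0 and 15.8 CPM with Gem-PSC-SU in KPC4. It fell in PSC4 and had a higher level in every treated KPC4 library, a difference of -2.26 ± 0.39 (SE; edgeR adjusted p = 0.0036). Zfp608 followed the same pattern, from 21.3 ± 3.19 to 9.91 ± 1.60 CPM in PSC4 and from 48.3 ± 7.14 to 76.5 ± 24.4 CPM in KPC4 (SD, n = 3 each), a difference of -1.81 ± 0.32 (SE; edgeR adjusted p = 0.0042). Zfp827 differed by -2.10 ± 0.28 (SE; edgeR adjusted p = 0.001). It was at 58.4, 60.4 and 57.0 CPM with Control-PSC-SU and 60.0, 38.6 and 45.0 CPM with Gem-PSC-SU in KPC4. Zfp467, the largest decrease in PSC4, had a difference of -2.47 and was not among the 17 called. With the replicate block 41 members differed (15.3%, against 21.9% of all genes). That block covers both lines, although in PSC4 the replicate numbers were not taken to pair the libraries. The number rests on single libraries, since it was 32 without KPC4 Gem-PSC-SU replicate 2, 20 without PSC4 Gem-SU replicate 1 and between 6 and 11 without any other library, and the interaction of Zfp619 passed in 3 of those 12 fits.

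Among members, levels per transcript length were highest for Zfp106, an RNA-binding protein, in both lines, at a mean of 491 CPM per kb in PSC4 and 784 CPM per kb in KPC4. In PSC4 it was followed by Zfp969 at 451 CPM per kb, all of whose 31-base words occur in other genes, and by Zfp706 at 335 CPM per kb. In KPC4 the next were Zfp706 at 553 and Zfp703 at 205 CPM per kb. Zfp106 and Zfp706 did not pass the test in either line (edgeR adjusted p from 0.56 to 0.65). With control supernatant, the raw levels of the lines differed most for Zfp618, at 4.04 ± 1.34 CPM in PSC4 and 95.5 ± 18.8 CPM in KPC4, and for Zfp469, at 50.9 ± 11.4 and 4.76 ± 1.60 CPM (SD, n = 3 each). For Zfp703 the control level was 12.8 ± 4.75 CPM in PSC4 and 120.2 ± 42.9 CPM in KPC4, and in PSC4 with Gem-SU it was 77.5 ± 7.12 CPM (SD, n = 3 each). These levels are a description, since the rule required a minimum level in both lines.

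Reads of near-identical copies could be split by the counting, so 13 members with more than 50% of their 31-base words shared with other genes are uncertain. Of these 1 fell and 2 rose in PSC4. Zfp968, with 97.3% shared words, was at 0, 0 and 18.1 CPM with Control-SU and 0, 47.7 and 2.85 CPM with Gem-SU, with zeros beside high values within a group. Among the 212 members with under 10% shared words, 51 fell (24.1%) and 48 rose (22.6%) in PSC4. Among the 240 with under 10% of their exon bases overlapped by another gene, 52 fell (21.7%) and 45 rose (18.8%).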

How the data were processed

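Total RNA from 12 cultures was sequenced at a commercial provider, per the labels' protocols. The submitters' processing notes name FastQC, Trim Galore 0.6.10, cutadapt 5.2, Salmon, R 4.5.1, DESeq2 and GRCm39, without their roles. The authors deposited 1 table of raw counts per line, as whole numbers per gene identifier, with 0 columns of per-sample values unused, and a comparison table per line with log2 fold changes and adjusted p-values, which are used as the authors' values. Low genes differed between the deposited tables (16386 identifiers in PSC4 and 15309 in KPC4).

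Symbols came from GENCODE M21 (99.7% matched in both lines). That annotation is of another build, so it gave no coordinates of the counted genes, only chromosomes and which members lie near each other, and newer Zfp symbols of the deposited comparison tables that it lacks (14 in PSC4, 13 in KPC4) are not members. Protein classes come from its translated coding transcripts, since the RefSeq proteins that had been planned were not used here. The KRAB pattern allows 2 letters off, so distant KRAB boxes can be missed.

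Counts were tested with edgeR 4.0.16 in R 4.3.3 (filterByExpr, TMM, robust quasi-likelihood test, Benjamini-Hochberg adjustment over all genes, threshold 0.05), per line, and over all 12 libraries for the interaction. DESeq2 1.42.0 was an alternative. The fits were tested on simulated data with known changes. Of 2-fold changes they recovered 57% in PSC4, 29% in KPC4 and 10% for the interaction. Of 4-fold changes they recovered 99%, 88% and 75%. The shares of false calls were 3.11%, 6.4% and 6.59%. A member that was not called can thus have changed. For the library medians 0.1 was added to each CPM. Deviations of same-numbered libraries correlated at 0.35, 0.44 and 0.21 in KPC4, each above 0.1. Replicate numbers were therefore treated as pairing those libraries, from these values and not from the labels. Each library held at least 26354328 counts, and the spread between replicates that the tests estimate includes counting error.

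Named genes were, in PSC4, the 10 largest decreases and 8 largest increases among called members whose groups do not overlap. In KPC4 they were the 4 members with the smallest p in each direction. Added to these were the 3 largest interactions in each direction, the 3 highest levels per length in each line and the members of the role lists. Members called in both lines, the line differences between controls and Zfp968 were chosen after their values were seen. Members and lists were chosen with earlier results of these data known.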

Additional observations from a re-analysis of the deposited data

Results flagged for a closer look

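For 17 members the change with Gem supernatant differed between PSC4 and KPC4 by the interaction test (edgeR adjusted p under 0.05). The change in PSC4 minus the change in KPC4, on the log2 scale, was lower for Zfp949 (-2.26), Zfp827 (-2.10), Zfp608 (-1.81), Zfp41 (-1.47), Zfp90 (-1.32), Zfp710 (-1.24), Zfp1 (-1.17), Zfp57 (-1.09), Zfp260 (-1.05) and Zfp740 (-0.77). It was higher for Zfp703 (2.62), Zfp456 (2.07), Zfp619 (1.93), Zfp428 (1.77), Zfp248 (1.24), Zfp930 (1.08) and Zfp125 (0.92). Zfp949, Zfp608 and Zfp428 had changes of opposite sign in the lines with groups that did not overlap in either. All 17 also passed with the replicate block. In that fit the block pairs same-numbered libraries in both lines, although in PSC4 the numbers were not taken to pair them.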

How the results depend on the processing

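The 10 largest decreases and 8 largest increases named in PSC4 kept their direction and side of the threshold without the low-count filter. They also kept them under the size factors of DESeq2, DESeq2 itself, a single fit over all 12 libraries and the replicate block. With the block 77 members were lower (28.7%, against 26.6% of all genes) and 68 higher (25.4%, against 27.9%). Counts over the cofactor and role lists moved with the fit. With the block, 6 cofactors were lower (26.1%) and 10 higher (43.5%). Of the 11 members that work outside promoters, 8 were higher with the block (72.7%). In PSC4 the replicate numbers were not taken to pair the libraries (correlations of 0.43, -0.055 and 0.10). Leaving out each library gave 41 to 64 lower and 37 to 66 higher members and medians of -0.11 to 0.06, so that the sign of the median changed, and 10 to 13 cofactors were called. In KPC4 the counts of 0 moved to 2 lower and 11 higher members with DESeq2, to 0 and 9 with a single fit, to 9 and 8 with the replicate block, and to between 0 and 8 lower and between 0 and 18 higher when each library was left out, the highest values being those without Gem-PSC-SU replicate 1. The KPC4 cofactors called were 0, and 1 with DESeq2, 1 with a single fit, 3 with the replicate block (Morc3, Uhrf1 and Suv39h2) and 0 to 3 when each library was left out. The median in KPC4 lay between -0.14 and -0.02 in the latter fits. The 17 interactions became 28 with DESeq2, 41 with the replicate block and 6 to 32 when each library was left out: 6 without PSC4 Control-SU replicate 3, PSC4 Gem-SU replicate 2 or KPC4 Control-PSC-SU replicate 1, 32 without KPC4 Gem-PSC-SU replicate 2, 20 without PSC4 Gem-SU replicate 1 and 9 to 11 without each of the others. Of the 8 members with full values in KPC4, the replicate block called Zfp948, Zfp382, Zfp7, Zfp410, Zfp362 and Zfp358, and DESeq2 the same genes with Zfp383 in place of Zfp358. The shares of all genes called in the fits that leave out a library are not given here. The cause of these moves was not tested.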
